A study of Aspergillus glaucus with 6 samples.

Results

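The comparison described here sets mycelium of Aspergillus glaucus CCHA after 36 h in 3 M NaCl against mycelium of the same strain after 36 h in 1 M NaCl, the early time of the study. It uses 2 of the 6 RNA sequencing libraries, 1 culture library per condition, chosen by their labels alone. The other 4 libraries are cultures grown for 84 h at 4 salt levels (0 M, 1 M, 3 M or 4 M NaCl), and they serve below as further cultures in which the same genes can be read. Among the libraries analysed, no culture without added salt stands beside the 36 h pair, so every difference is between high and moderate salt. Apart from protocol notes, the labels give only the strain, the salt concentration and the treatment time.

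Aspergillus glaucus belongs to the fungi that grow on dry or salty substrates. Fungi of this kind meet high salt by building up compatible solutes such as glycerol inside the cell, by pumping out sodium, and by changing the cell wall and membrane. In filamentous fungi and yeast, the high-osmolarity glycerol kinase cascade carries much of the signal to the transcriptome. The gene IDs of these files pair with no gene names: 0 of 8441 IDs were found among the 11428 genes that RefSeq lists for a different strain of the species (assembly Aspgl1). Genes are therefore described by ID and by read level, without a role, and no marker gene could be used to check the labelled conditions.

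The 3 M library at 36 h held 17933754 counts over 8203 genes with a read, and the 1 M library held 16987222 counts over 8282 genes. The 84 h libraries held between 16371771 and 18376857 counts. Levels are given as CPM, counts scaled to library size with TMM factors, a scaling that corrects for library size and for a few genes taking a large part of the reads. CPM is not corrected for transcript length, so an order of genes by CPM is an order by reads and not by molecules. A level of 100 CPM corresponds to 1620 counts for 3 M and 1727 counts for 1 M. Counting error is small at that level and wider where a gene has few counts in its lower library, as the intervals show. The spread between cultures is unknown because each condition has 1 library. No p-value was computed. Intervals given with a fold change are exact 95% counting intervals. They treat every read as a separate count and leave out the spread between cultures. Reads that carry no molecular identifiers can stem from the same molecule, so even the counting error can be larger than the intervals show. The 3 M library at 36 h had 5710 genes at 10 CPM or more, like the 4 M library at 84 h with 5681, against 6072 to 6116 in the other 4.

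At 36 h, the 3 M library had lost far more transcripts than it had gained. A gene entered the comparison with at least 10 CPM in at least 1 of the 2 libraries, which left 6339 genes. By the size rule of 4-fold or more, 130 genes were higher in 3 M, which is 2.05% of all genes tested, and 559 were lower, which is 8.82%. Toward the extremes the excess of lower genes grew, from 173 lower against 17 higher at 16-fold to 59 lower against 4 higher at 64-fold. Counting all genes 2-fold or more apart, 855 were higher and 1110 lower, and among the abundant genes defined below the counts were 438 higher and 407 lower. Between 2-fold and 4-fold the order turned, with 725 genes higher and 551 lower, but scaling by total counts, tried after the data were seen, gave 526 higher and 671 lower. Over all 6339 genes the median was 0.06 on the log2 scale, and 69.0% of them differed less than 2-fold. The 855 higher genes took 32.4% of counts in 3 M and 12.9% in 1 M, and the 1110 lower genes took 4.39% in 3 M and 23.7% in 1 M. Genes less than 2-fold apart took 62.9% in each library. In RNA from whole mycelium, fewer cells of a type and less RNA per cell cannot be told apart.

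Abundant transcripts were taken as those of at least 100 CPM in the library where they were higher, and there were 2542 of them. By this rule 68 genes were gained in 3 M (higher by 4-fold or more, with 100 CPM or more in 3 M) and 209 were lost (lower by 4-fold or more, with 100 CPM or more in 1 M). They make up 2.68% and 8.22% of the 2542. These shares are set by the rule and describe the size of each group. All 277 members had a counting interval that excluded 2-fold, which at these depths follows from the rule and is no support for the groups. The interval lay wholly beyond 4-fold for 59 gained and 192 lost genes. Just inside the threshold stood AG01898.1, at 2.008 on the log2 scale, and AG03782.1, at -2.003. Just outside it stood AG07494.1, at 1.996, and AG06861.1, at -1.994. Such genes change sides with the scaling: AG01898.1 came to 1.84 with total counts and AG03782.1 to -1.97 with DESeq2 size factors. Scaled by total counts, the rule gave 47 gained and 237 lost genes.

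**Figure D1:**
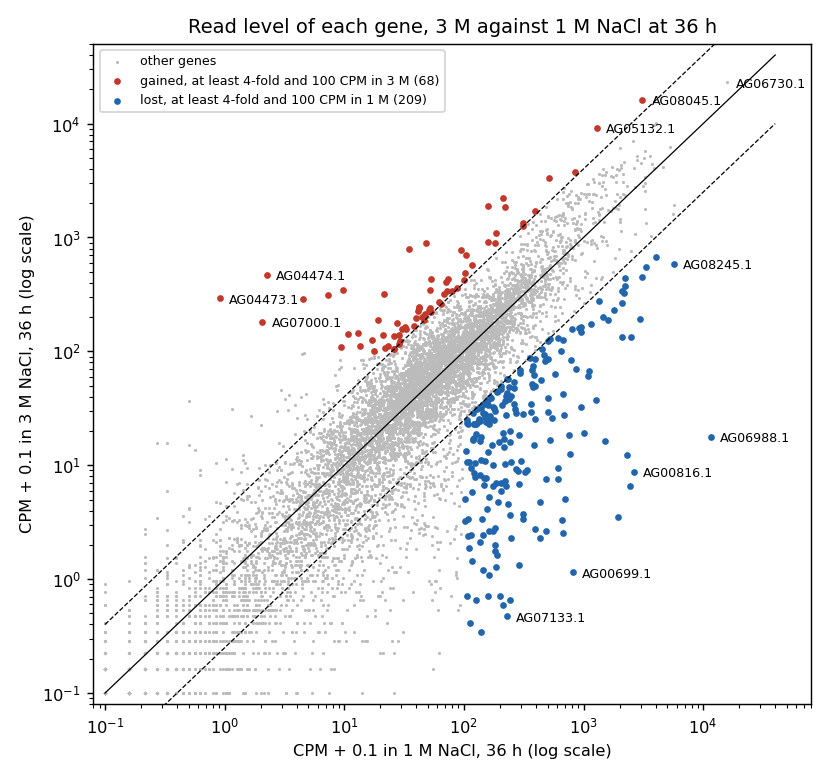
Each point is 1 gene, with its CPM in 1 M NaCl at 36 h on the horizontal axis and in 3 M NaCl at 36 h on the vertical axis, both as CPM plus 0.1 on log scales. The solid line marks equal levels and the dashed lines 4-fold differences. The 68 gained genes (red) lie mostly close to the upper dashed line, while the 209 lost genes (blue) extend far below the lower one.

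Together the 68 gained genes took 5.51% of counts in 3 M and 1.03% in 1 M at 36 h. Their median level was 280.04 CPM in 3 M and 45.7 CPM in 1 M. Most differences were moderate: 49 of the 68 were 4-fold to 8-fold higher, 11 were 8-fold to 16-fold higher, and 8 exceeded 16-fold. The median log2 fold change of the group was 2.43. Only 7 of the 68 were under 10 CPM in the 1 M library, and 16 were already at 100 CPM or more there. The gained set therefore consisted mainly of transcripts present in 1 M that stood several times higher in 3 M.

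A few genes held most of the gained reads. The 8 gained genes with the most reads took 3.63% of counts in 3 M and 0.686% in 1 M. AG08045.1 led them with 16245 CPM in 3 M and 3108 CPM in 1 M, a log2 fold change of 2.39 (interval 2.37 to 2.40). It was the gene with the second most reads of the 3 M library and took 1.47% of its counts, against 0.316% of counts and rank 24 in the 1 M library. AG05132.1 had 9158 CPM in 3 M and 1283 CPM in 1 M (log2 fold change 2.84, interval 2.82 to 2.86), and moved to rank 5 in 3 M from rank 109 in 1 M. These were the 2 gained genes among the 5 most read genes of the 3 M library.

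The next gained genes by level began from lower ranks in 1 M. AG03497.1 had 3771 CPM in 3 M and 852 CPM in 1 M, and AG02612.1 had 3313 CPM in 3 M and 517 CPM in 1 M. AG04878.1 had 2211 CPM in 3 M and 210.5 CPM in 1 M, and AG02956.1 had 1897 CPM in 3 M and 159 CPM in 1 M. The last 2 had the largest log2 fold changes among these 8 genes, at 3.39 and 3.58, and came from ranks 960 and 1305 in the 1 M library. AG07068.1 had 1859 CPM in 3 M and 221 CPM in 1 M, a log2 fold change of 3.07. AG01645.1 had 1707 CPM in 3 M and 396 CPM in 1 M, a log2 fold change of 2.11. Scaled by total counts, AG03497.1 came to 1.98 and AG01645.1 to 1.94, just under 4-fold.

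The gained genes furthest apart were not the most read ones. AG04473.1 had 4749 counts in 3 M and 14 in 1 M at 36 h, or 293 and 0.811 CPM, a log2 fold change of 8.31 (interval 7.75 to 9.37). AG04474.1, the next number in the ID series, had 7597 counts in 3 M and 37 in 1 M, or 469 and 2.14 CPM (log2 fold change 7.70, interval 7.31 to 8.28). AG07000.1 had 183 CPM in 3 M and 1.97 CPM in 1 M (6.46, interval 6.05 to 7.07). AG02747.1 had 287 CPM in 3 M and 4.46 CPM in 1 M (5.97, interval 5.68 to 6.35). These genes had few reads in 1 M, between 14 and 77 counts. They lay above the detection limit there, where 3 counts, the limit that a count of 0 allows, correspond to 0.174 CPM. No gained gene lacked a read in the 1 M library.

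**Figure D2:**
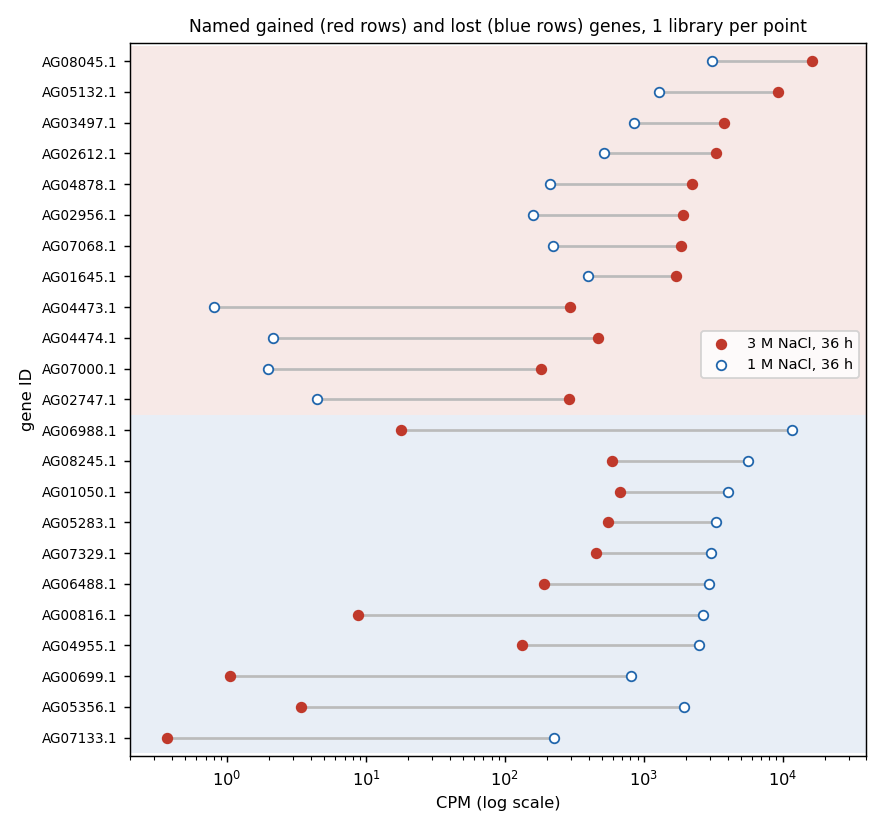
Each row is 1 gene with its CPM on a log scale in 3 M NaCl at 36 h (filled red) and 1 M NaCl at 36 h (open blue), 1 library per point. Red rows are the 8 gained genes with the most reads and the 4 furthest apart, and blue rows are the lost genes chosen alike, of which AG06988.1 meets both rules. The most read gained genes were at 158.5 CPM or more in 1 M, and the 4 gained genes furthest apart at 4.46 CPM or less. Among the lost genes, AG06988.1, AG00816.1, AG00699.1, AG05356.1 and AG07133.1 lay below 20 CPM in 3 M. The other lost genes shown were at 133 CPM or more there.

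The 209 lost genes took 0.994% of counts in 3 M and 12.3% in 1 M at 36 h. Their median level was 22.8 CPM in 3 M and 232 CPM in 1 M, and their median log2 fold change was -3.58. Losses were deeper than gains: 88 genes were 4-fold to 8-fold lower, 34 were 8-fold to 16-fold lower, 48 were 16-fold to 64-fold lower and 39 were lower by 64-fold or more. In 3 M, 71 of the 209 lay under 10 CPM and 10 lay under 1 CPM, while 27 were still at 100 CPM or more. No abundant gene lost every read. Among all genes tested, 2 had no read in 3 M, AG02300.1 with 449 counts in 1 M and AG04243.1 with 241, and none had a read in 3 M alone.

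The largest single loss of reads was that of AG06988.1. It had 287 counts in 3 M and 201642 in 1 M, or 17.7 and 11675 CPM, a log2 fold change of -9.36 (interval -9.54 to -9.20). In the 1 M library it was the gene with the second most reads and took 1.19% of counts, against 0.0016% in 3 M, where it ranked 5096. AG00699.1 was the furthest apart of all abundant genes, with 1.05 CPM in 3 M and 811 CPM in 1 M (-9.45, interval -10.37 to -8.91). AG05356.1 had 3.39 CPM in 3 M and 1935 CPM in 1 M (-9.11, interval -9.56 to -8.77). AG07133.1 had 6 counts in 3 M and 3920 in 1 M, or 0.37 and 227 CPM (-8.88, interval -10.71 to -8.14). All 4 were thus at 17.7 CPM or less in 3 M and at 227 CPM or more in 1 M.

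Other heavily read genes of the 1 M library were lower in 3 M but remained abundant there. AG08245.1 had 589.7 CPM in 3 M and 5657 CPM in 1 M (log2 fold change -3.26). AG01050.1 had 673 CPM in 3 M and 4006 CPM in 1 M, and AG05283.1 had 556 CPM in 3 M and 3326 CPM in 1 M. AG07329.1 had 448 CPM in 3 M and 3053 CPM in 1 M, a log2 fold change of -2.77. AG06488.1 had 192 CPM in 3 M and 2957 CPM in 1 M, and AG04955.1 had 133 CPM in 3 M and 2507 CPM in 1 M. These 6 genes still ranked between 275 and 1587 in the 3 M library.

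The lost genes of at least 1000 CPM in 1 M therefore ranged from partial to near-complete loss. There were 27 of them, and 7 were under 20 CPM in 3 M, a limit chosen after the values were seen. The 7 are AG06988.1, AG00816.1, AG02031.1, AG00751.1, AG05356.1, AG00519.1 and AG06046.1, with 3.39 to 19.1 CPM in 3 M and 1014 to 11675 CPM in 1 M. Apart from AG02031.1, each of them stood at 606 CPM or more in the 0 M, 1 M and 3 M libraries at 84 h, and at 21.4 CPM or less in the 4 M library. Their low level was thus seen in 2 of the 6 libraries, 3 M at 36 h and 4 M at 84 h. AG02031.1 differed, with 65.1 CPM in 0 M, 601 CPM in 1 M, 16.6 CPM in 3 M and 1.73 CPM in 4 M at 84 h.

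Direction varied with read level. Genes were placed in classes by the higher of their 2 CPM values. Of the 243 genes at 1000 CPM or more, 172 were above 0 on the log2 scale and 71 below, with a median of 0.74. The median was 0.18 for the 587 genes between 300 and 1000 CPM, 0.12 for the 1712 between 100 and 300 CPM, 0.06 for the 2434 between 30 and 100 CPM, and -0.19 for the 1363 between 10 and 30 CPM. Scaled by total counts, which moved the median over all genes to -0.12, the median of the highest class was 0.49, so it stood above that of all genes in both scalings. The share of genes higher by 4-fold or more was 4.53% in the highest class (11 genes, and 6 when scaled by total counts) and 1.54% in the lowest. The share lower by as much was 11.1% in the highest class, 7.23% between 30 and 100 CPM and 12.8% in the lowest. Most genes of the highest class thus stood higher in 3 M, by a median that depended on the scaling. Its share of genes lower by 4-fold or more was not particular to the class, beside 8.82% of all genes tested and 12.8% in the lowest class.

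**Figure D3:**
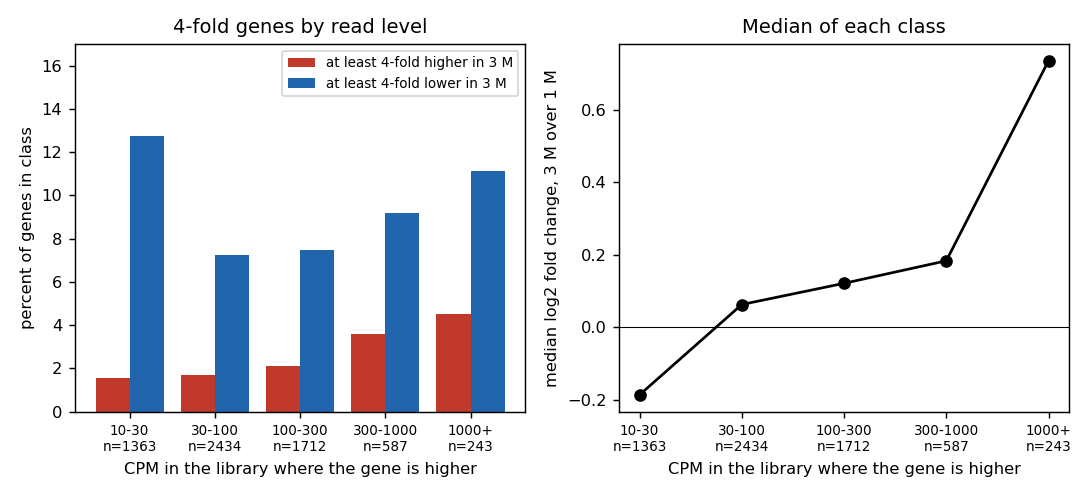
The left panel shows the percent of genes higher (red) and lower (blue) by 4-fold or more in 3 M NaCl, relative to 1 M NaCl at 36 h, by class of CPM, with the number of genes under each class. The right panel shows the median log2 fold change of each class. The percent higher grows from 1.54% to 4.53% across the classes and the median from -0.19 to 0.74.

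Reads were concentrated in fewer genes in the 3 M library. The 10 most read genes took 8.90% of counts in 3 M and 6.74% in 1 M, and the 100 most read took 31.9% in 3 M and 26.6% in 1 M. It took 290 genes to reach 50% of counts in 3 M and 423 in 1 M. Each 84 h library needed between 389 and 481 genes. The lists of the 100 most read genes shared 55 genes, 55% of each list. Of the 100 most read in 3 M, 92 were above 0 on the log2 scale, 7 were higher by 4-fold or more and 0 were lower by as much. Of the 100 most read in 1 M, 49 were below 0, 21 were lower by 4-fold or more and 1 was higher by as much. A list chosen for high levels in 1 library leans toward that library, so these counts describe the lists.

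The most read gene was the same in both cultures. AG06730.1 had 22984.5 CPM in 3 M and 15813 CPM in 1 M at 36 h, a log2 fold change of 0.54, and lay between 13588 and 18589 CPM in the 4 libraries of 84 h. Of the other genes at the top of the 3 M library, AG01061.1 had 10038 CPM in 3 M and 3997 CPM in 1 M, and AG06628.1 had 9791 CPM in 3 M and 3892 CPM in 1 M. Both had a log2 fold change of 1.33, below the 4-fold rule. At the top of the 1 M library, AG00856.1 had 1941 CPM in 3 M and 5725 CPM in 1 M (-1.56), and AG07393.1 had 1619 CPM in 3 M and 5622 CPM in 1 M (-1.80).

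The gained and lost genes were then read in the 84 h libraries. These entered the selection values only through the TMM scaling over all 6 libraries. With TMM from the 2 libraries at 36 h, the rule gave 72 gained and 201 lost genes. The rule itself was set with earlier results of these data known. Against 0 M, the 4 M library at 84 h showed 40 of the 68 gained genes higher by 4-fold or more and 0 lower by as much, where 3.24% of all 6391 genes tested were as much higher. Their median log2 fold change was 2.39, and that of all genes tested was 0.11. Of the 209 lost genes, 152 were lower by 4-fold or more in 4 M and 2 higher, where 9.98% of all genes were as much lower, and their median was -3.87. Among genes of at least 100 CPM at 36 h, the background was 3.11% higher and 8.46% lower. In 4 M at 84 h, 54 gained genes (79.4%) and 123 lost genes (58.9%) were within 2-fold of 3 M at 36 h. A higher share of the 2542 abundant genes, 90.4%, was within 2-fold. Of the lost genes, 205 had 10 CPM or more in at least 1 of these libraries, and medians are over all members.

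When 3 M was set against 1 M among the 84 h cultures, the members were divided. Of the 68 gained genes, 14 were higher by 4-fold or more and 3 lower by as much, where 2.56% of all 6415 genes tested were higher and 4.6% lower. Among genes of at least 100 CPM at 36 h, 2.36% were higher and 2.12% lower. The median log2 fold change of the 68 was 1.06, beside 0.02 over all genes tested, and 2 of the 68 were under 10 CPM in both libraries. Of the 209 lost genes, 30 were lower by 4-fold or more, 24 were higher by as much, and 104 differed less than 2-fold. No share of all genes under 2-fold is given for this comparison, so the 104 only describe the list. Their median was -0.24. In the 3 M library at 84 h the lost genes had a median of 195 CPM, against 248 CPM in 1 M at 84 h, and they took 10.5% of counts in 3 M and 11.3% in 1 M. Against 1 M at 36 h, 117 of the 209 lost genes (56.0%) were within 2-fold in 3 M at 84 h. Of the 2542 abundant genes, 88.4% were. Whether the libraries in 3 M at 36 h and 84 h differ by time, by single culture or by label cannot be told apart with 1 library each.

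**Figure D4:**
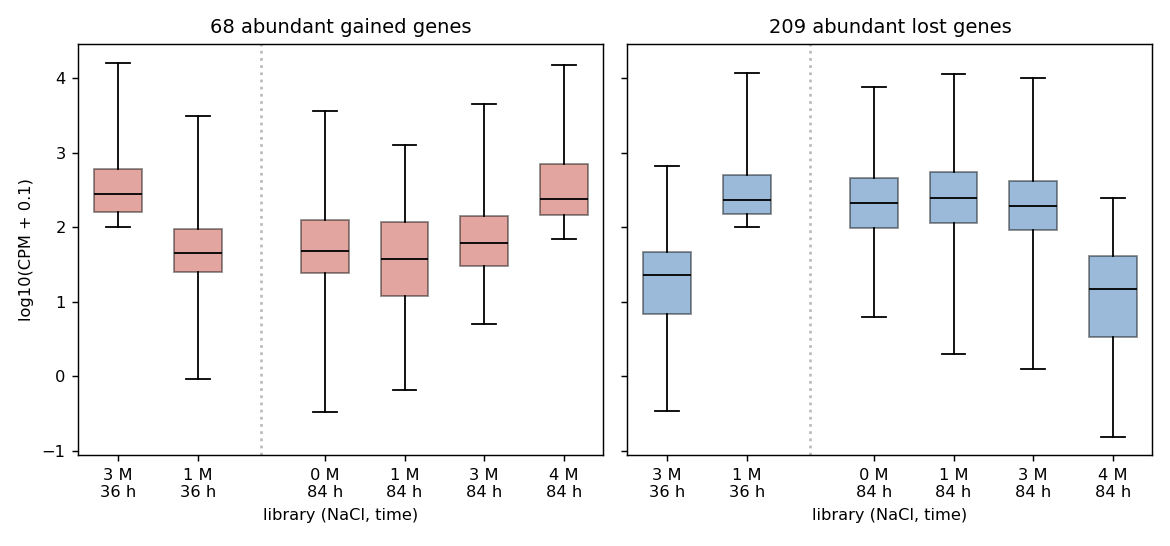
Box plots of log10(CPM + 0.1) in each of the 6 libraries for the 68 gained genes (left) and the 209 lost genes (right). Boxes span the quartiles, lines mark medians and whiskers reach the lowest and highest gene. The median of the lost genes is 22.8 CPM in 3 M at 36 h and 14.6 CPM in 4 M at 84 h, and lies between 195 and 248 CPM in the other 4 libraries.

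Across all 6 libraries, 60 of the 68 gained genes were higher in both 3 M at 36 h and 4 M at 84 h than in each of the other 4, and 174 of the 209 lost genes were lower in both. Over the 2542 abundant genes these shares were 32.8% and 20.6%. The rule itself sets 3 M at 36 h above or below 1 M at 36 h for every member. Among the gained genes, the lowest level of the 6 libraries fell in 1 M at 84 h for 32 genes (47.1%) and in 0 M for 21 (30.9%), beside 25.2% and 14.3% of the 2542 abundant genes. AG08045.1 had 3629 CPM in 0 M, 1278 CPM in 1 M, 4535 CPM in 3 M and 15072 CPM in 4 M at 84 h, close in 4 M to its 16245 CPM in 3 M at 36 h. AG02956.1 was different, with 45.7, 126, 117 and 283 CPM in 0 M, 1 M, 3 M and 4 M at 84 h, far below its 1897 CPM in 3 M at 36 h. AG02955.1, the ID before it, had 700.3 CPM in 3 M and 105 CPM in 1 M at 36 h, and between 18.5 and 109.9 CPM in the 4 libraries of 84 h.

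Several gained genes were also higher in 3 M than in 1 M at 84 h. AG07000.1 had 132 CPM in 3 M and 9.72 CPM in 1 M at 84 h (log2 fold change 3.75, interval 3.54 to 3.99), beside 1.16 CPM in 0 M and 200.2 CPM in 4 M. AG04474.1 had 26.7 CPM in 3 M and 0.899 CPM in 1 M at 84 h, and AG07068.1 had 430.2 CPM in 3 M and 80.0 CPM in 1 M. AG04473.1 had 6.11 CPM in 3 M and 0.562 CPM in 1 M at 84 h, under the minimum of 10 CPM. The 3 gained genes whose difference at 84 h had the opposite sign and was 4-fold or more, named here after their values were seen, are AG05917.1, AG06226.1 and AG01562.1. AG05917.1 had 902 CPM in 3 M and 48.2 CPM in 1 M at 36 h, but 41.0 CPM in 3 M and 542 CPM in 1 M at 84 h. AG06226.1 had 348 CPM in 3 M and 9.67 CPM in 1 M at 36 h, but 5.95 CPM in 3 M and 261 CPM in 1 M at 84 h.

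A small set of lost genes was much higher in both 1 M libraries than in all others. In 5 of the 209, each 1 M library stood at least 4 times above each of the other 4 libraries, a pattern picked after the values were seen. The rule for lost genes already sets 1 M above 3 M by 4-fold at 36 h. No share over all abundant genes is given, so the count of 5 only describes the list. They are AG02031.1, AG04044.1, AG00041.1, AG01090.1 and AG04586.1. AG00041.1 had 3.21 CPM in 3 M and 661 CPM in 1 M at 36 h, and 32.8, 649, 34.0 and 2.17 CPM in 0 M, 1 M, 3 M and 4 M at 84 h. AG01090.1 had 7.47 CPM in 3 M and 614 CPM in 1 M at 36 h, and 40.9, 525, 43.5 and 31.7 CPM in the same 4 libraries. For these 5 genes the 0 M library at 84 h was also low, at 16.8 to 65.1 CPM.

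Some lost genes carried consecutive ID numbers. A lost gene with another lost gene at the next or previous number was found in 27 of 209 cases (12.9%). A gained gene with a gained neighbour was found in 8 of 68 (11.8%). Over all genes tested whose neighbour was lower by 4-fold or more, 21.1% were themselves lower by as much, against 8.82% of all genes. Of those whose neighbour was higher, 11.2% were higher, against 2.05%. The last shares count genes at every level tested, so they are no background for the 27 and 8 abundant members. No matching share over abundant genes is given, so whether 27 and 8 are many was not tested. Gene positions were not analysed here, so next numbers are not shown to be next in the genome, and overlapping or duplicated genes could not be recognised. The gained pairs were AG02955.1 and AG02956.1, AG04466.1 and AG04467.1, AG04473.1 and AG04474.1, and AG05222.1 and AG05223.1. AG04466.1 had 105 CPM in 3 M and 26.0 CPM in 1 M at 36 h, and AG04467.1 had 406 CPM in 3 M and 70.9 CPM in 1 M. AG05222.1 had 228 CPM in 3 M and 41.1 CPM in 1 M, and AG05223.1 had 197 CPM in 3 M and 40.01 CPM in 1 M. Of these 8, AG04466.1 lies at the threshold, with a log2 fold change of 2.01, and at 1.84 when scaled by total counts.

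The longest run among the lost genes held 6 numbers, AG00814.1 to AG00819.1. AG00814.1 and AG00815.1 each had 10 counts in 3 M, against 2744 and 3440 counts in 1 M. AG00816.1 had 141 counts in 3 M and 45784 in 1 M, or 8.70 and 2651 CPM, the highest level of the run. AG00817.1 had 3.64 CPM in 3 M and 314 CPM in 1 M, AG00818.1 had 3.15 CPM in 3 M and 103 CPM in 1 M, and AG00819.1 had 2.22 CPM in 3 M and 249 CPM in 1 M. The log2 fold changes of the 6 lay between -8.23 and -4.98. On either side no ID next to the run was lower by 4-fold: AG00812.1 had 19.9 CPM in 3 M and 23.5 CPM in 1 M, AG00813.1 had 14 counts in 3 M and 51 in 1 M, and AG00820.1 had 48.8 CPM in 3 M and 24.3 CPM in 1 M. At 84 h the run was high in 0 M, 1 M and 3 M, at 160 CPM or more for every gene, and 8.02 CPM or less in 4 M.

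**Figure D5:**
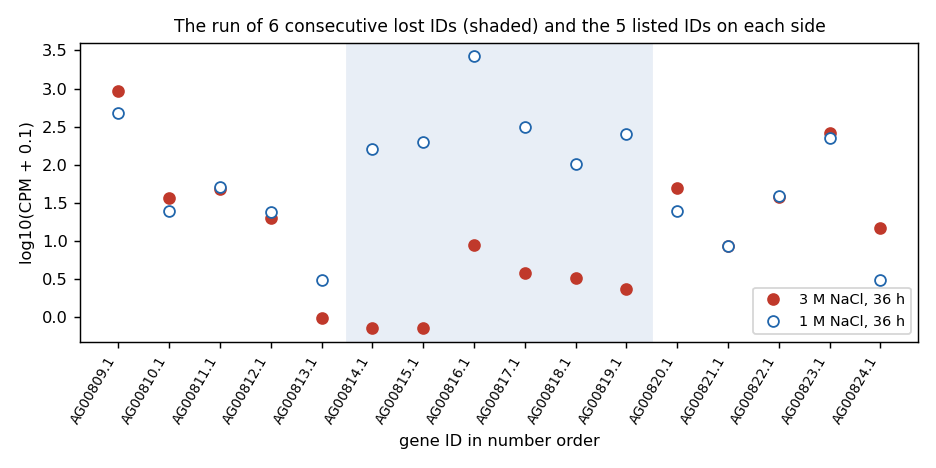
Each gene ID is shown in number order on the horizontal axis, with log10(CPM + 0.1) in 3 M NaCl at 36 h (filled red) and 1 M NaCl at 36 h (open blue). The 6 IDs of the run are shaded, and all 6 are below 10 CPM in 3 M and above 100 CPM in 1 M. None of the 5 listed IDs on each side is at least 4-fold lower.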

How the data were processed

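The authors deposited a file of raw counts for each library, 1 line per gene and without normalization, in which the smallest count is 1. A gene absent from a file was taken as 0 counts. Per the submitters' processing notes, the tools included HTSeq 0.5.4p2 and TopHat2 2.0.8b. No source used here gives the build, annotation, strand setting or filters. Mycelium was collected by filtration and frozen, and RNA was prepared with TRIzol and a column clean-up, per the labels' protocols.

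Library sizes were scaled by TMM over all 6 libraries (edgeR 4.0.16, R 4.3.3). For log2 fold changes, 2 counts scaled to library size were added as a prior. The intervals of ratios leave this prior out, so where counts are few they are not those of the fold change printed beside them. Exact 95% intervals of ratios and shares are Clopper-Pearson (SciPy 1.17.1), and the widest interval of a share given spans 0.0471 percentage points. With 1 library per condition no test was run and genes were counted by size. Groups were taken from the treatment labels.

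Genes were named by rule: the 8 most read gained and the 8 most read lost genes, the 4 furthest apart in each direction among abundant genes, the 5 most read genes of each library, those next to the 4-fold threshold, and the longest runs of IDs. A further 16 genes were named after their values were seen. The genes, lists and rules were chosen with earlier results of these data known. The size rule was run on simulated Poisson counts for this comparison, with 6074 genes, of which 5874 were given no change. It called 100% of the 66 genes given an 8-fold change, 100% of the 66 given 16-fold and 0% of the 68 given 2-fold. Such counts hold counting error only, so at these depths the outcome follows from the threshold. The simulation cannot show how the rule performs with spread between cultures. Alternatives were scaling by total counts, by DESeq2 1.42.0 size factors and by TMM from the libraries compared, a prior count of 0.5, other minima of CPM, and a stricter counting interval.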

Additional observations from a re-analysis of the deposited data

Results flagged for a closer look

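Some differences between 3 M and 1 M NaCl ran in opposite directions at the 2 times, and with 1 library per condition the difference between times was not tested. Of the abundant lost genes, 24 of 209 (11.5%) were at least 4-fold higher in 3 M than in 1 M at 84 h, beside 2.56% of all genes tested. Of the abundant gained genes, 3 of 68 (4.41%) were at least 4-fold lower, a share near the 4.6% of all genes tested. For genes of at least 100 CPM at 36 h, the background at 84 h was 2.36% higher and 2.12% lower. AG07329.1 had 1541 CPM in 3 M and 30.6 CPM in 1 M at 84 h, a log2 fold change of 5.65, against -2.77 at 36 h. AG08245.1 had 4237 CPM in 3 M and 1232 CPM in 1 M at 84 h, a log2 fold change of 1.78, against -3.26 at 36 h.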

How the results depend on the processing

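Counts of genes at least 4-fold apart stayed within 1.5 times of the reported values under the other scalings, the prior count of 0.5, the CPM minima for entry and the stricter interval, with 1 exception. Scaled by total counts, 6 and not 11 genes of at least 1000 CPM were 4-fold higher. The median of that class was then 0.49 and not 0.74, and the median of all genes tested was -0.12. The same scaling gave 47 and not 68 abundant gained genes, and 237 and not 209 abundant lost genes. The number of abundant genes moved with its own minimum: at 200 CPM 44 genes were gained and 123 lost. Leaving out the 17 genes that are among the 10 most read of either library put the share of the 100 most read at 26.8% in 3 M and 22.1% in 1 M. Of the 42 genes named by rule and the 16 named after their values were seen, none that was at least 4-fold apart changed sign under the scalings or the prior count tried. The 4-fold threshold was crossed under a scaling by 7 of the 42 and 0 of the 16. No paired analysis was possible because each condition has 1 library. Low counts in 1 library widen the interval of some named genes, such as AG07133.1 with 6 counts in 3 M, and the spread between cultures is unknown.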
